A study of Mus musculus with 6 samples.

Results

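The genes described here encode the parts of the mitochondrial death pathway that promote cell death: 8 BH3-only genes (Pmaip1, Bbc3, Bcl2l11, Bid, Bad, Bik, Bmf and Hrk) and the effector genes Bax and Bak1. They were taken as every non-control array probe whose accession belongs to 1 of these 10 genes, which gave 16 probes out of 56605 on the array, where 23462 genes could be named. In this pathway, stress signals raise or activate BH3-only proteins, which bind the pro-survival BCL2 proteins or directly engage BAX and BAK. BAX and BAK then open the outer mitochondrial membrane, and the released cytochrome c starts the caspase cascade.

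The samples were acinar cells isolated from the pancreas of C57BL/6 mice of 2 genotypes. KC mice (n = 3) carry Ptf1aCre, in which Cre recombinase is driven by Ptf1a, whose product is a transcription factor of pancreatic progenitors and acinar cells. KCS mice (n = 3) carry all the alleles of KC mice and also Setdb1flox/flox, floxed copies of Setdb1, whose protein methylates histone H3 and silences genes, so Cre is shared by both groups. Only cells that have made Cre, and their descendants, are recombined, so any other cell in the preparation still has Setdb1. The labels give no age and do not say whether each sample is a separate animal, so the p-values measure the spread between these samples, which may be in part technical. The series title links the comparison to apoptosis that depends on p53, and the pro-death BCL2 genes are among those that p53 can activate.

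Each sample was hybridised to 1 one-colour array, so the number of arrays limits the precision of every value. Values are log2 of the processed spot signal minus the 75th percentile of that array, called the scaled signal below. That percentile lay between 61.2 and 68.6 scanner units in KC and between 347 and 423 in KCS. In KC, 34.4% to 37.4% of all signal came from the brightest 100 probes, against 13.4% to 14.6% in KCS, and the change of every gene depends on the scaling. The median log2 fold change (KCS minus KC) over all 34485 tested probes was -0.12 with the 75th percentile, 0.23 with median centring, 0.06 with quantile normalization and 2.78 with scaling to the spike-in controls. For this reason the change of a probe is also given relative to the median of all tested probes, which is the same number under the 75th percentile, median centring and spike-in scaling. With a threshold of 0.05 on limma's adjusted p, 59.1% of these probes were called. KCS was the higher group for 26.8% of probes and the lower group for 32.3%. Of all calls, 45.3% were higher, against 59.5% with median centring, 97.2% with spike-in scaling, 29.7% after normexp background correction and 24.5% without the filter on dim probes.

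Acinar markers were high on every KC array, whereas KCS replicates 1 and 2 went against the acinar label by these markers. All 10 acinar markers fell in KCS, and their median scaled signal was 11.31 to 11.53 on KC arrays against -6.61, -3.80 and 4.51 in KCS replicates 1, 2 and 3. On these KCS arrays 4, 8 and 10 of the 10 acinar markers were well above background. The digestive carboxypeptidase gene Cpa1 was 11.43 to 11.65 in KC and -1.87, -0.61 and 7.53 in KCS. All 8 macrophage markers rose, with a median scaled signal of 0.39 to 1.11 in KC and 4.73 to 5.04 in KCS (log2 of their summed signal 4.55 to 5.23 and 8.35 to 8.79). All 8 fibroblast and stellate markers rose as well, with a median of 3.45 to 3.76 in KC and 6.21 to 6.69 in KCS (summed signal 7.64 to 8.06 and 10.06 to 10.36). Of the other lists, 4 of 6 endothelial markers rose, 3 of 7 ductal markers rose and 1 fell, 4 of 7 T, NK and B cell markers rose and 1 fell, 4 of 5 neutrophil markers rose and 1 fell, and 5 of 6 islet markers fell. The part of these other cells in the changes of the death genes was not tested. Fewer cells of a type and less RNA per cell cannot be told apart in such bulk samples. Setdb1 had 1 probe, at -0.91, -1.05 and -0.32 in KC and -0.28, -0.44 and -0.55 in KCS, a log2 fold change of 0.33 ± 0.24 (SE, limma adjusted p = 0.270). It passed as higher in KCS with median centring (0.69, limma adjusted p = 0.0432) and spike-in scaling (3.23, limma adjusted p = 1.3e-05), and was 0.19 without KC replicate 2 and 0.55 without KC replicate 3, passing in neither. Where that probe lies relative to the loxP sites is not known here.

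**Figure D1:**
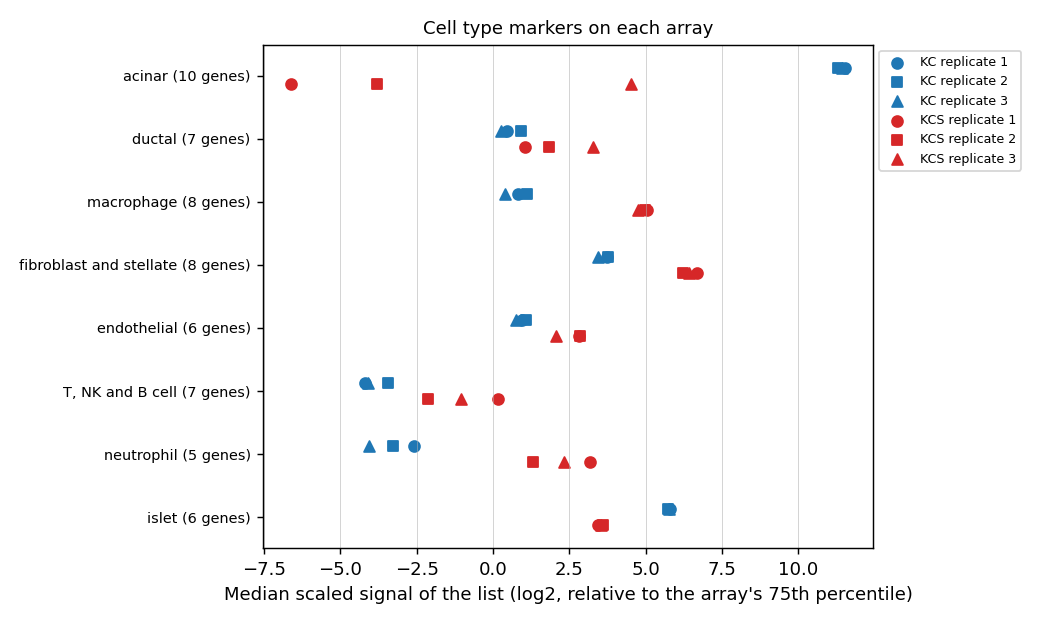
Median scaled signal (log2, x axis) of 8 lists of cell type markers (y axis) on each of the 6 arrays, blue for KC and red for KCS, with a marker shape for each replicate number. The acinar list lies at 11.31 to 11.53 on the KC arrays and is spread from -6.61 to 4.51 over the KCS arrays, while the macrophage and fibroblast lists lie higher on all 3 KCS arrays than on any KC array.

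Factors such as p53 and FOXO proteins are known to activate genes of this family. Of the genes with a probe that rose in KCS, Bmf is not shown, and Pmaip1 and Bik had no window. Promoter sequences are shown for the others, Bax, Bcl2l11, Bid and Bak1. Each is a window of 300 bases, from 250 before to 50 after the most upstream start site in RefSeq's annotation of GRCm38.p6, written 5′ to 3′ on the gene's strand. Capitals mark a match to the p53 half-site consensus or to the FOXO site TGTTTAC, searched on both strands.
Bax, chr7:45466849-45467148, minus strand: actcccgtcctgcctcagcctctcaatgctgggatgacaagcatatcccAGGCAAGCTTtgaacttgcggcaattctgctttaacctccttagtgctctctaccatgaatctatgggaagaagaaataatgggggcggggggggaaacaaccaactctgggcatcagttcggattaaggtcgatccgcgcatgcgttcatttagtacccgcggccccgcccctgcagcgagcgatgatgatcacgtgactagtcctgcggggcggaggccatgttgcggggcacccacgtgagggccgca
Bcl2l11, chr2:128125788-128126087, plus strand: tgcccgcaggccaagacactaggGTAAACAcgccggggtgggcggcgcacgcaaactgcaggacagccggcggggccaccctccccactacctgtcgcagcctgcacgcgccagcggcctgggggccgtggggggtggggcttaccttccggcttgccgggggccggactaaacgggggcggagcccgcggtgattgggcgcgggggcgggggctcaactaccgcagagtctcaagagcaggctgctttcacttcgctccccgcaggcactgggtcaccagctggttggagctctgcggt
Bid, chr6:120916775-120917074, minus strand: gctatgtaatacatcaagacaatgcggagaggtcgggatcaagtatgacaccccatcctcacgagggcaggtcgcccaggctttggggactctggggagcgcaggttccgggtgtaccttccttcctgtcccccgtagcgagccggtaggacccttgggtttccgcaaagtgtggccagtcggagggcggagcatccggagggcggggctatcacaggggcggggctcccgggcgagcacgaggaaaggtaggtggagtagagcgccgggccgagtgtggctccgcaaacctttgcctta
Bak1, chr17:27028578-27028877, minus strand: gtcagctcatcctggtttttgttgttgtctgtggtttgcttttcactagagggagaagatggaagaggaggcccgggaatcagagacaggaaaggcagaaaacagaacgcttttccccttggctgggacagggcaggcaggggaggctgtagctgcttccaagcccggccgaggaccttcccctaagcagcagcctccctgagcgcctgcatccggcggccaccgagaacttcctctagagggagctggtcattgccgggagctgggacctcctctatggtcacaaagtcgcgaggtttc

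The Bax window held a p53 half-site, AGGCAAGCTT, at position -201 counted from the start site. Such a match occurs in 8.4% of all 32851 windows in the table. The Bax window also held 2 copies of the E-box CACGTG, a motif bound by MYC and related factors that is found in 7.2% of windows, and 3 of the GC box GGGCGG on either strand, found in 35.7%. The Bcl2l11 window held 1 FOXO site, as GTAAACA on the strand shown, at position -227, where 3.6% of windows have a match. Bid held 3 GC boxes and none of the other motifs, and the Bak1 window held none of these motifs. Among the windows not shown, a downstream Bmf window held a p53 half-site. A downstream window of Bbc3, a gene that was not called, held a FOXO site. The TATA box TATAAA, present in 13.6% of windows, was in none of the 14 windows of the 8 family genes in the table. The windows had 27 CpG dinucleotides for Bcl2l11, 22 for Bid, 19 for Bax and 11 for Bak1, against a median of 7 over all windows. This was not particular to genes that rose. The most upstream windows of Bbc3 and Bad, not called, and Hrk, not tested, had 34, 27 and 29 CpG and 5, 4 and 2 GC boxes. A match is a description of the letters and not evidence of binding.

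Of the 16 probes, 13 passed the filter on dim probes, which asks for a signal well above background on 3 or more arrays, and these cover 9 of the 10 genes. By limma, 9 probes of 7 genes were higher in KCS, 1 probe of Bmf was lower, and 3 probes did not pass, beside 59.1% called, 26.8% higher and 32.3% lower among all tested probes. The median log2 fold change of the 13 probes was 1.83, against -0.12 over all tested probes, and 12 of them lay above the median of all tested probes. For 2 of the 13, those of Pmaip1 and 1 of Bcl2l11, only KCS arrays were well above background, so they could enter the test only by being higher there. Of the 10 probes well above background on all 6 arrays, 6 were higher, 1 was lower and 3 did not pass, beside 23.2% higher and 38.7% lower among all 23744 such probes. The KC and KCS arrays did not overlap for 10 probes higher in KCS and 1 lower, where this held for 30.9% and 36.4% of all tested probes, 67.3% together. The 9 probes called higher are among these 10. The call and the lack of overlap come from the same 6 arrays, so neither is separate support for the other. Whether the acinar content of the arrays had a part in this was not tested.

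**Figure D2:**
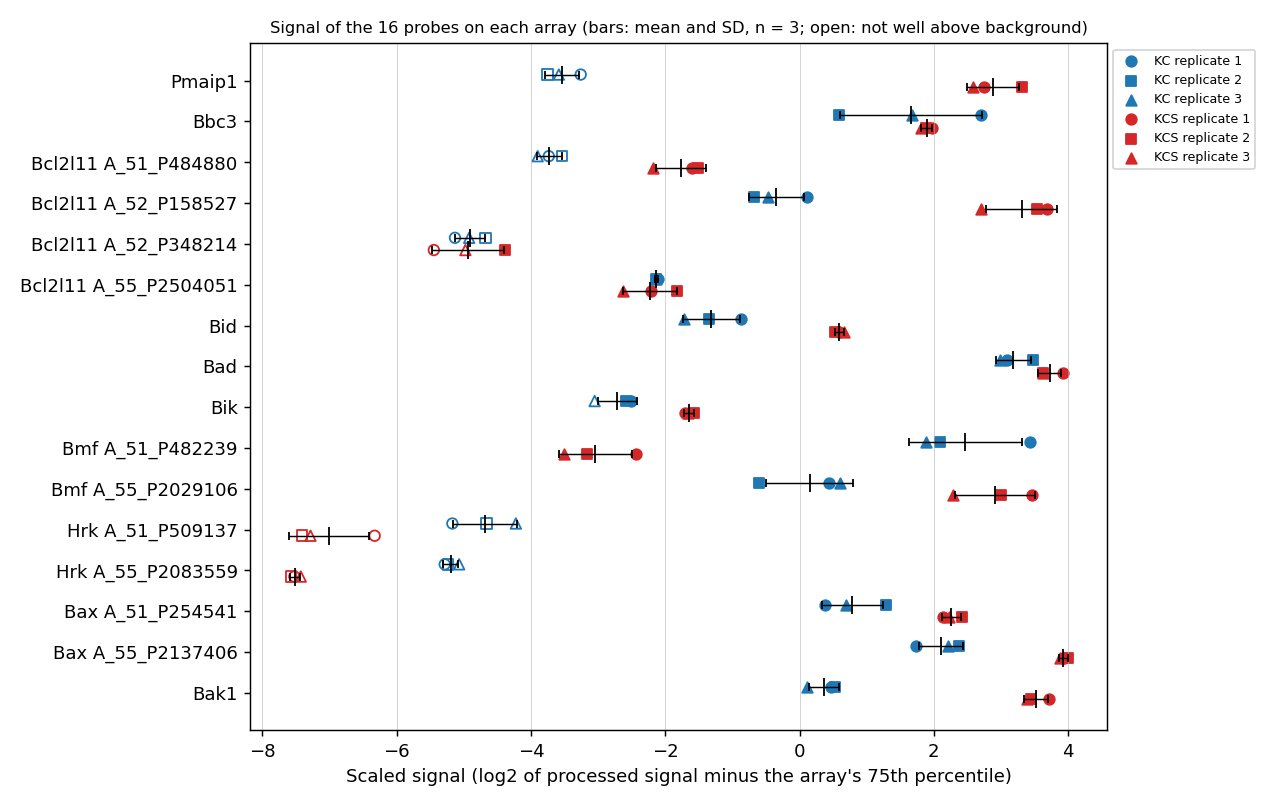
Scaled signal (log2, x axis) of each of the 16 probes (y axis) on the 3 KC arrays (blue) and the 3 KCS arrays (red), with the mean and SD of each group as black bars and open symbols where the probe was not well above background. Pmaip1 is separated by 6.42 between the group means, with no KC array well above background. The probes of Bak1, Bax and Bid are separated with no overlap, and the 2 Bmf probes lie in opposite order.

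The effectors Bax and Bak1 both rose. Bak1, which sits in the outer mitochondrial membrane, had 1 probe, with a scaled signal of 0.46, 0.52 and 0.11 in KC replicates 1 to 3 and 3.72, 3.45 and 3.38 in KCS replicates 1 to 3. All KCS arrays were well above all KC arrays, and the difference was many times the spread within a group (SD 0.23 in KC and 0.18 in KCS). The log2 fold change was 3.15 ± 0.20 (SE, n = 3 per group, limma adjusted p = 1.04e-04), an 8.9-fold rise with a 95% interval of 6.37 to 12.4. That is 3.27 above the median of all tested probes, with 4.30% of them changing more in the upward direction.

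Bax, which moves from the cytosol to mitochondria when activated, was measured by 2 probes of the same transcript accession. The first, A_55_P2137406, was 1.74, 2.37 and 2.20 in KC and 3.92, 4.0 and 3.87 in KCS. The second, A_51_P254541, was 0.38, 1.28 and 0.70 in KC and 2.14, 2.41 and 2.23 in KCS. On both probes the KCS arrays lay above every KC array and within a narrower range than the KC arrays. The log2 fold changes were 1.83 ± 0.21 (limma adjusted p = 6.33e-04) and 1.47 ± 0.26 (limma adjusted p = 0.00344), or 3.55-fold and 2.77-fold. The probes differed by 0.35, less than the median range of 0.55 between probes of the same gene over the 5833 genes with at least 2 tested probes.

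Pmaip1, which encodes NOXA, a BH3-only protein that binds MCL1 and is a known p53 target, had the largest estimate of the family. Its scaled signal was -3.26, -3.75 and -3.59 in KC and 2.74, 3.32 and 2.59 in KCS. In scanner units, before any scaling between arrays, this was 6.95, 5.08 and 5.10 against 2630, 4230 and 2090. No KC array was well above background, so the KC level is only a bound. With the processed signal Pmaip1 was at least 60.4-fold higher in KCS (limma adjusted p of the estimate, not of the bound, = 5.13e-05). That bound did not hold after normexp background correction with an offset of 50, where the log2 fold change was 3.74 (limma adjusted p = 1.83e-05), still higher in KCS. Only 0.22% of the tested probes had a larger upward change, a rank that rests on the same KC signal. After normexp, 99.28% of the tested probes lay below Pmaip1, against 99.78% before.

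Bcl2l11 encodes BIM, a strong activator of BAX and BAK that binds all pro-survival BCL2 proteins, and its 4 probes did not move together. Probe A_52_P158527 was 0.11, -0.69 and -0.47 in KC and 3.69, 3.54 and 2.71 in KCS, a rise of 3.66 ± 0.34 (limma adjusted p = 2.78e-04) or 12.7-fold. Probe A_51_P484880, of the same accession (NM_207680), was -3.73, -3.54 and -3.90 in KC, not well above background there, and -1.60, -1.51 and -2.19 in KCS. With the processed signal it was at least 2.41-fold higher in KCS (limma adjusted p of the estimate, not of the bound, = 7.37e-04). That bound did not hold after normexp background correction, where the log2 fold change was -0.19 (limma adjusted p = 0.239).

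The remaining Bcl2l11 probes, both of accession NM_001284410, gave another picture. Probe A_55_P2504051 was -2.11, -2.14 and -2.14 in KC and -2.21, -1.83 and -2.63 in KCS, so the groups overlapped although every array was well above background. Its log2 fold change was -0.09 ± 0.24 (limma adjusted p = 0.756), with a 95% interval of -0.66 to 0.48, and it was 2.80 with spike-in scaling (limma adjusted p = 5.94e-05) and -0.87 after normexp background correction (limma adjusted p = 3.79e-04). Probe A_52_P348214 was well above background on 1 KCS array alone and was not tested. The 3 tested probes spanned 3.75 on the log2 scale, a range reached by 2.88% of the genes with several tested probes. The files do not give the position of a probe in the transcript, so which Bcl2l11 isoforms each probe reads is not known here.

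Bid, whose protein is cut by caspase 8 and thereby links death receptors to mitochondria, rose with little spread among the KCS arrays. Its scaled signal was -0.87, -1.35 and -1.73 in KC and 0.58, 0.53 and 0.66 in KCS. The SD was 0.43 in KC and 0.06 in KCS, and the log2 fold change was 1.91 ± 0.25 (limma adjusted p = 9.35e-04), a 3.75-fold rise with a 95% interval of 2.48 to 5.66. Casp8, the gene of that caspase, rose by 3.14 ± 0.30 on the log2 scale (limma adjusted p = 3.11e-04).

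Bmf, a BH3-only protein known to be held at the cytoskeleton through a dynein light chain until cell stress frees it, gave opposite results with its 2 probes, although both carry the accession NM_138313. Probe A_55_P2029106 was 0.44, -0.60 and 0.60 in KC and 3.46, 3.0 and 2.28 in KCS, a rise of 2.77 ± 0.43 (limma adjusted p = 0.00183). Probe A_51_P482239 was 3.43, 2.09 and 1.89 in KC and -2.44, -3.17 and -3.51 in KCS, and it fell by 5.51 ± 0.48 on the log2 scale (limma adjusted p = 2.27e-04). Every array was well above background on both probes, and neither probe's groups overlapped. In scanner units the second probe was 717, 293 and 226 in KC and 72.3, 47.1 and 30.4 in KCS, so it was lower in KCS before any scaling between arrays, and it was lower under spike-in scaling too (-2.61, limma adjusted p = 0.00172).

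Of the 5833 genes with at least 2 tested probes, 4.13% had probes called in opposite directions, as did 3.4% of 4887 accessions with several tested probes, and 5 genes, Bmf among them, had a range between probes of 8.28 or more. Among the KCS arrays, the falling Bmf probe was lowest in replicate 3. The median of the 10 acinar markers was highest there, at 4.51, but below the 11.31 to 11.53 of the KC arrays. Whether the 2 are linked was not tested. When the Bmf probes were averaged into 1 value, the gene was at -1.37 (limma adjusted p = 0.0240), opposite in sign to the probe with the higher mean signal. No single direction can therefore be given for Bmf.

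Bik, a BH3-only protein of the endoplasmic reticulum, showed a smaller change. Its scaled signal was -2.51, -2.58 and -3.05 in KC, where 2 of 3 arrays were well above background, and -1.71, -1.57 and -1.66 in KCS. The log2 fold change was 1.07 ± 0.20 (limma adjusted p = 0.00444), or 2.10-fold, but it was -0.36 (limma adjusted p = 0.00827) after normexp background correction, so the direction for this dim probe depended on how background was handled. The dim Bcl2l11 probe A_51_P484880 went from 1.96 to -0.19 under the same correction, and no other called probe of the family changed sign there.

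Bad, whose protein is kept inactive by phosphorylation and is released when growth factor signals cease, did not pass. It was 3.09, 3.48 and 2.98 in KC and 3.92, 3.63 and 3.62 in KCS. The KCS arrays lay above the KC arrays without overlap, but the closest arrays differed by less than the spread in KC, and the log2 fold change was 0.54 ± 0.21 (limma adjusted p = 0.0611, 95% interval 0.04 to 1.04). Adjusted p fell below the threshold under several other settings, among them quantile normalization (0.0347) and median centring (0.0121), and without KC replicate 2 (0.69, limma adjusted p = 0.0316).

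Bbc3 encodes PUMA, the BH3-only protein best known as a p53 target, and it was the member with the widest spread among KC arrays. Its scaled signal was 2.71, 0.59 and 1.67 in KC and 1.98, 1.89 and 1.81 in KCS, so the 3 KCS arrays lay within the range of the KC arrays. The log2 fold change was 0.24 ± 0.50 (limma adjusted p = 0.706), and its 95% interval ran from -0.97 to 1.44, which leaves room for a change of up to 2.71-fold upward. Bbc3 was at -0.30 without KC replicate 2 and at 0.76 without KC replicate 1, with neither passing, and at 3.13 (limma adjusted p = 4.80e-04) with spike-in scaling, where the median of all probes was 2.78.

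Hrk, a BH3-only gene known mainly from neurons, was not well above background on any array with either of its 2 probes. In scanner units they read 1.71 to 3.27 in KC and 2.01 to 4.88 in KCS, and no direction can be given.

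**Figure D3:**
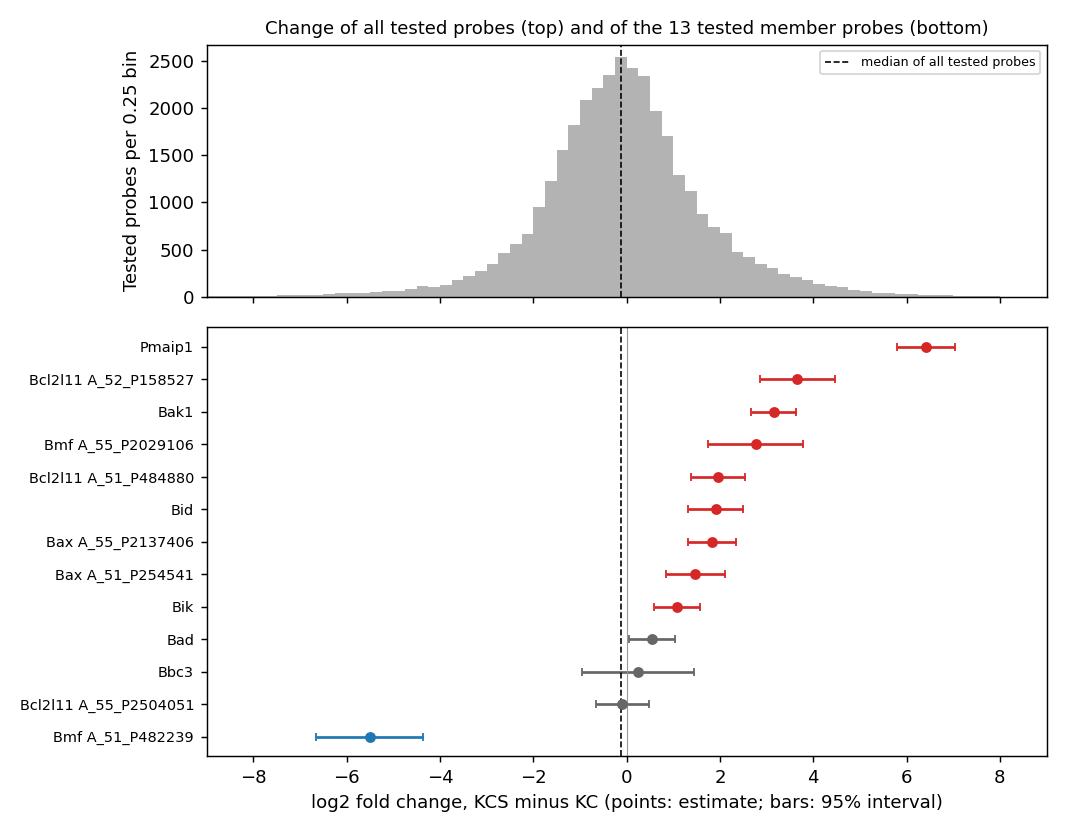
The upper panel shows the number of tested probes (y axis) in bins of 0.25 of log2 fold change (KCS minus KC, x axis), with 85 of the 34485 probes beyond the axis limits of -9 and 9. The lower panel shows the estimate and 95% interval of the 13 tested probes of the family, red where called higher, blue where called lower and grey where not called, and most lie to the right of the dashed median of all probes at -0.12.

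The direction of the called probes held under other scalings, apart from the 2 dim probes already named. With 1 array left out at a time, Bak1 stayed between 3.02 and 3.23, Pmaip1 between 6.2 and 6.57, Bid between 1.7 and 2.13 and the brighter Bax probe between 1.64 and 1.96. The Pmaip1 values here and by slide rest on KC signal not well above background, and its estimate was 3.74 after normexp. Replicate 1 of both groups shared 1 slide, and replicates 2 and 3 shared another. Within the first slide, 1 array against 1 with no test, Bak1 differed by 3.26, Pmaip1 by 6.00, Bid by 1.45, Bax by 2.18 and 1.75 and Bbc3 by -0.73. Within the second slide, 2 arrays against 2, the same genes were at 3.1, 6.62, 2.13, 1.65 and 1.33, and 0.72, and 9 probes of the family were called higher and 1 lower. Of the 9 probes that rose, 6 were lowest in KCS replicate 3 among the KCS arrays. Without KCS replicate 1, 2 or 3, 9 probes were called higher and 1 lower each time.

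**Figure D4:**
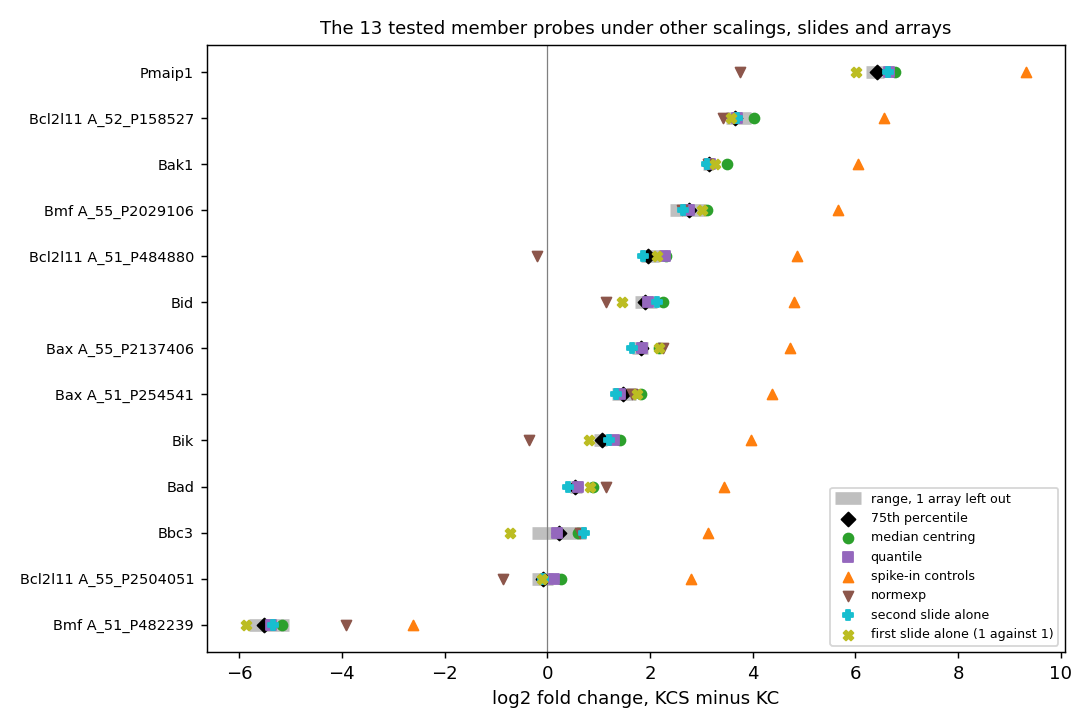
log2 fold change (KCS minus KC, x axis) of the 13 tested probes (y axis) under 5 ways of scaling or background correction and within each slide, with grey bars for the range when 1 array is left out. Spike-in scaling shifts every probe to the right by 2.90, and after normexp correction the Bik probe and the dim Bcl2l11 probe lie left of 0.

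The genes around the family in the pathway were mixed. Over 16257 named genes with 1 probe each, 61.6% were called, 32.5% higher and 29.2% lower. Of the 44 tested genes in 4 lists of the pathway, 18 rose and 10 fell relative to the 75th percentile, but with spike-in scaling 42 were called higher and 1 lower.

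Among 5 tested pro-survival genes, whose proteins BH3-only proteins bind, 3 rose and 1 fell, with a median of 0.80 beside -0.12 over all probes. Bcl2a1d, a leukocyte member with near-identical copies, rose by 6.58 ± 0.47 on the log2 scale, Bcl2 by 0.91 ± 0.22 and Bcl2l1, which encodes BCL-XL, by 0.80 ± 0.21. Bcl2l2, which encodes BCL-W, fell by 1.19 ± 0.22. Mcl1, the main partner of NOXA, was 4.85, 4.73 and 5.26 in KC and 5.13, 5.03 and 4.81 in KCS, a log2 fold change of 0.04 ± 0.21 (limma adjusted p = 0.876). Bcl2l10 was not well above background on any array, and Bcl2a1a and Bcl2a1b had no probe by accession.

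Of 13 genes that act with or after BAX and BAK, 6 rose and 2 fell (median 0.16). Apaf1, the scaffold of the apoptosome, had no KC array well above background and, with the processed signal, rose at least 4.73-fold in KCS. Whether that bound holds after normexp background correction was not examined, and those of Pmaip1 and Bcl2l11 A_51_P484880 did not. The initiator caspase gene Casp9 rose by 1.51 ± 0.20 and the caspase inhibitor gene Xiap by 1.04 ± 0.18. Htra2, a protease released from mitochondria, fell by 1.85 ± 0.19, and Endog, a mitochondrial nuclease, fell by 1.07 ± 0.21. Cycs, the cytochrome c gene, was at -0.14 ± 0.19 (limma adjusted p = 0.561).

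Of 14 known regulators of BH3-only transcription, 3 rose and 5 fell (median -0.28). Trp53 rose by 1.67 ± 0.22 (limma adjusted p = 9.62e-04), from -0.99, -0.47 and -0.75 in KC to 0.67, 1.10 and 1.03 in KCS. Mdm2, whose protein marks p53 for degradation, rose by 0.74 ± 0.24 and the cell cycle factor gene E2f1 by 0.59 ± 0.21. The p53 relative Trp73 fell by 4.16 ± 0.41, Foxo3 by 1.90 ± 0.42, the stress factor gene Atf4 by 1.46 ± 0.21 and Mdm4 by 0.99 ± 0.23, and of these only Trp73 was lower with spike-in scaling.

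Of 12 genes whose proteins modify or bind BH3-only proteins, 6 were measured higher and passed and 2 fell (median 0.87). Beside Casp8, Sfn, a 14-3-3 protein gene, rose by 3.70 ± 0.24, and Dynll1, a dynein light chain gene whose protein binds BIM, by 1.41 ± 0.26. Gzmb, the granzyme gene of cytotoxic lymphocytes whose protein can cut BID, passed too, but no KC array was well above background and no fold can be bounded. Dynll2, the light chain that binds BMF, fell by 1.34 ± 0.24, and the JNK2 kinase gene Mapk9 fell by 1.06 ± 0.19.

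The genes most like 3 members in pattern were found as those with the smallest root mean square difference over the 6 arrays after each probe was centred on its own mean. For Bak1 they were Capg (0.06 on the log2 scale), Serpinf1 (0.07) and Acta1 (0.07). For Bax they were Vwa5a (0.07), Snapc3 (0.08), which unlike Bax had no KC array well above background, and 4930402H24Rik (0.08). For Pmaip1 they were Acsbg1 (0.18), Pbp2 (0.19) and Ddah1 (0.23), and all 3 lacked, like Pmaip1, a KC array with signal above background. With 6 arrays in 2 groups, such likeness mainly reflects the same difference between the groups.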

How the data were processed

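Total RNA from 3 KC and 3 KCS samples was amplified and labelled with Cy3 per the labels' protocols. The deposited intensity values come from Agilent Feature Extraction 12.0.3.1 per the submitters' processing notes and the file headers, which already corrected the processed signal for background. The deposited log2 value table, centred by probe on its median over the arrays, matched the scaled scanner values (r = 0.999999 or above, across probes) and was an alternative only. Its column medians were -0.01, 0.05 and 0.10 for KC and -0.05, -0.03 and -0.04 for KCS, and its scale, centring and direction are thus known.

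log2 processed signal minus each array's 75th percentile was used, with outlier spots left out (88 to 140 per array, none of the 16 probes) and no spot saturated. Accessions, without version, were matched to RefSeq records of GRCm38.p6, which named 33767 probes. The headers name another build, so only the promoter windows, read from RefSeq's GRCm38.p6 table, have coordinates. limma 3.58.1 in R 4.3.3 (lmFit and eBayes, two-sided, no covariates) compared KCS with KC over every probe well above background on at least 3 arrays, with Benjamini-Hochberg adjustment over all of them. SE and intervals are those of this fit. Each probe was tested on its own, and list genes were read by the probe with the highest mean. A group with no array well above background has only a bound, its mean taken from the higher, on each array, of the probe's own signal and the lowest signal well above background.

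The members and lists were chosen with earlier results of these data known, so no list was tested as a set. Named were all members, Setdb1, Trp53, up to 4 called genes with the smallest p in each direction of each pathway list, and the nearest 3 genes to Pmaip1, Bax and Bak1. Casp6, Ywhaz, Pim1 and Myc also passed in their lists. Mcl1, Cycs and Bcl2l10 were added after their values were seen. Some items, among them an allele of both groups and members counted in a list, are not reported here. The labels name no pairing, so the replicate number was not used as one. Same-numbered arrays of both groups did not all deviate together (r = 0.31, 0.04 and 0.12 across probes). With 3 arrays per group these values cannot exclude a pairing. The steps were tested on simulated data. Tables were made with pandas 2.3.3 and numpy 2.4.6 under Python 3.11.15, and figures with matplotlib 3.10.9.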

Additional observations from a re-analysis of the deposited data

How the results depend on the processing

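Leaving out each array in turn gave 10 to 11 called probes of the family (9 to 10 higher, 1 lower), 24 to 28 called genes in the pathway lists (14 to 18 higher, 10 lower) and 16510 to 19117 called probes in all (7433 to 8732 higher, 9077 to 10733 lower). Spike-in scaling called 31519 probes, 30646 higher and 873 lower, and 43 genes of the pathway lists, 42 higher and 1 lower. After normexp on the median signals, chosen after the data were seen, 19387 probes and 3 of the family were lower. Normexp on mean signals was not run, since the files have no such column. Without the filter on dim probes 38161 probes were called, 28810 of them lower, and 3 probes of the family were lower, the added ones being those of Hrk at background. With probes well above background on all 6 arrays 5902 were higher, fewer probes being tested. With 1 probe per gene 0 probes of the family were called lower by limma, and 0 at an unadjusted p below 0.05, since the falling Bmf probe is not the one kept.

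Among single probes, signs turned for Bmf with its probes averaged (-1.37), Bik (-0.36) and Bcl2l11 A_51_P484880 (-0.19) after normexp, Bbc3 without KC replicate 2 (-0.30) and on the first slide (-0.73), and Bcl2l11 A_55_P2504051 with quantile normalization (0.12), median centring (0.26), spike-in scaling (2.80), array weights (0.028) and without KCS replicate 3 (0.11). Leaving out 1 array at a time gave -0.30 to 0.76 for Bbc3 and -0.29 to 0.11 for that Bcl2l11 probe. The causes were not tested. With the replicate block 20321 probes, 10 of the family (9 higher, 1 lower) and 27 pathway genes were called, and the block changed no call of a member. Not every array correlated best with its own number. Signal near background limits Pmaip1, Bik, Hrk and 2 Bcl2l11 probes. Bcl2l11 A_55_P2504051 was well above background on every array, but its call also depended on background handling. It was called lower after normexp (-0.87, limma adjusted p = 3.79e-04).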
